A study of Homo sapiens and Mus musculus with 26 samples.

Results

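The genes that build, attach and remodel the glycosylphosphatidylinositol (GPI) anchor were followed through 3 expression tables, one of mouse testis and one for each of 2 human testicular germ cell tumor lines. A gene was included where its symbol was PIG or PGAP followed by a single letter or digit (PIGR, an immunoglobulin receptor, apart), DPM1, DPM2 or DPM3, or GPAA1. The rule found 28 of 25770 genes in the testis table, 28 of 16694 named genes in the 2102EP table and 28 of 17335 genes in the 2102EP-C1 table, which makes 29 distinct genes. PIGZ was listed in the 2102EP-C1 table only and PGAP4 in the others only, and PIGY and PGAP5 were not listed under those symbols in any of them. PGAP4 and PGAP6 were found under older symbols in testis (Tmem246 and Tmem8) and in 2102EP (TMEM246 and TMEM8A). All 28 genes of each table passed the filter on low values.

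The study asked how perfluoroalkyl substances alter gene expression in normal testis and in testicular germ cell tumor cells. Whole testes came from CD-1 mice of 5 to 8 weeks, 3 libraries per group, after daily oral dosing for 15 days. The controls received vehicle, PFOS was given at 5 or at 20 mg/kg, and GenX at 20 mg/kg. PFOS is a perfluoroalkyl sulfonic acid, and GenX is a shorter ether-containing carboxylic acid introduced as a replacement chemical. 2102EP cells (labelled EP), a human embryonal carcinoma line, were exposed for 4 days to DMSO (control), 10 nM PFOS or 5 µM PFOS, with 2 libraries per group. 2102EP-C1 cells (labelled C1), a cisplatin-resistant line derived from them, received DMSO or 10 nM PFOS for 4 days, with 4 libraries per group. The methods describe RNA of the cells as taken in biological quadruplicate, whereas the 2102EP table holds 2 libraries per group, and the labels do not tie libraries to cultures. Where they came from the same culture, the p-values measure the spread between these libraries, which may be technical.

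A GPI anchor is a glycolipid that holds a protein in the outer leaflet of the plasma membrane. It is assembled on phosphatidylinositol in the endoplasmic reticulum, beginning with the addition of N-acetylglucosamine and going on with mannose and ethanolamine phosphate, and a transamidase then joins the finished lipid to the protein. The sugar chain and the lipid are remodelled afterwards, on the way to the cell surface. In testis many surface proteins of germ cells and sperm are held in this way.

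Reads on genes ran from 14212659 to 19912415 per library in testis, 33299121 to 48717356 in 2102EP and 25576298 to 32848865 in 2102EP-C1. One testis of the 20 mg/kg PFOS group (replicate 3) and one treated 2102EP-C1 library (replicate 1) stood apart from their groups. Their chi-square per degree of freedom against the others was 42.9 to 48.2 and 21.6 to 43.8. The counts of members called, and the differences of some members, are given with and without them. The other pairs of replicates gave 8.13 to 19.8 in testis and 2.51 to 10.5 in the cells. All 8 spermatid, 8 spermatocyte and 8 spermatogonial markers were detected in every testis group, as were all 7 embryonal carcinoma markers in both cell lines.

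The sequences before the transcription starts of 3 members are shown because PIGT and DPM1 were the members called lower in PFOS-treated 2102EP cells, while PIGK, the catalytic subunit of the transamidase to which PIGT also belongs, was called higher in the same libraries. Each is the 250 bases before a RefSeq start, GRCh38.p14, in the direction of the gene. They lie at chr20:45415891-45416140 on the plus strand for PIGT, chr20:50958533-50958782 on the minus strand for DPM1 (1 of 2 listed starts) and chr1:77219431-77219680 on the minus strand for PIGK. Capitals mark any of 7 motifs searched on both strands, which were CCAAT (the box bound by NF-Y), GGGCGG (the GC box of the Sp factors), CACGTG (an E-box), TGACGTCA (the cyclic AMP response element), CCGGAAG (a core bound by ETS factors), GCGCATGC (bound by NRF1) and GATGGCG (bound by YY1), each counted on its own where it overlaps another.
PIGT: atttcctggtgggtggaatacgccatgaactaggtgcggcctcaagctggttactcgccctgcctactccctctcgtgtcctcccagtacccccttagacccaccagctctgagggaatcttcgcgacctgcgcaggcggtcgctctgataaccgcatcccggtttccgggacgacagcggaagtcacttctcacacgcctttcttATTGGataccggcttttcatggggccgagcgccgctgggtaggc
DPM1: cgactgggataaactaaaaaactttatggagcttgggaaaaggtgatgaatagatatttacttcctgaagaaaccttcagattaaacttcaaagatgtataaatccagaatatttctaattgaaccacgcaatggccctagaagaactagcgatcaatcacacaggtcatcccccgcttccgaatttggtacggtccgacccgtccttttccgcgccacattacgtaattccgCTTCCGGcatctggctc
PIGK: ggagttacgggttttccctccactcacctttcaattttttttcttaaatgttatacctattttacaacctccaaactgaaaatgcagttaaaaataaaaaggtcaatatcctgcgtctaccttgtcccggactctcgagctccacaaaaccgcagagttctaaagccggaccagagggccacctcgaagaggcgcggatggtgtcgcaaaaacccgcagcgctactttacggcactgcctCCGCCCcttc
The capitals are CCAAT (on the reverse strand) in PIGT, CCGGAAG (reverse) in DPM1 and GGGCGG (reverse) in PIGK. The window of the other DPM1 start, chr20:50958565-50958814, overlaps the one shown and held 0 of the motifs. Both DPM1 windows lie inside the gene span given below, which comes from another annotation and runs to 50959140. The last bases of the PIGT window likewise lie past 45416084, where its span begins. RefSeq starts were matched for 25 of the 29 human members, with 39 windows in all, more than 1 for some genes. GPAA1, PIGF, PIGG and PIGH were not matched. The median GC content was 63.6% in the member windows and 58.0% in all windows. CCAAT was in 10 of the 39 windows (25.6%, against 32.0% of all 35116 windows of this length), GGGCGG in 19 (48.7%, against 42.6%) and CCGGAAG in 9 (23.1%, against 8.52%). CACGTG and TGACGTCA were in 2 windows each (5.13%, against 6.34% and 1.65%), GATGGCG was in 1 (2.56%, against 2.38%) and GCGCATGC in 0 (against 2.63%). These are matches of letters and no measure of binding. The 9 windows with CCGGAAG came from 8 genes, and the 2 with TGACGTCA from 1 gene, PGAP2.

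Across the 6 comparisons with control, members passed the test at 20 mg/kg in testis and at both PFOS concentrations in 2102EP cells, and not at 5 mg/kg or in 2102EP-C1 cells. The calls over all genes had the same pattern. Of all genes, 31.0% passed with GenX, 6.54% at 20 mg/kg PFOS and 25.7% and 26.9% in 2102EP cells at 10 nM and 5 µM. At 5 mg/kg and in 2102EP-C1 cells 0.00443% and 0.0% did. Values are the deposited log2 CPM (read counts scaled to a common library size) and their differences, and a member was called where its adjusted p from limma over all genes of the table was at most 0.05.

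**Figure D1:**
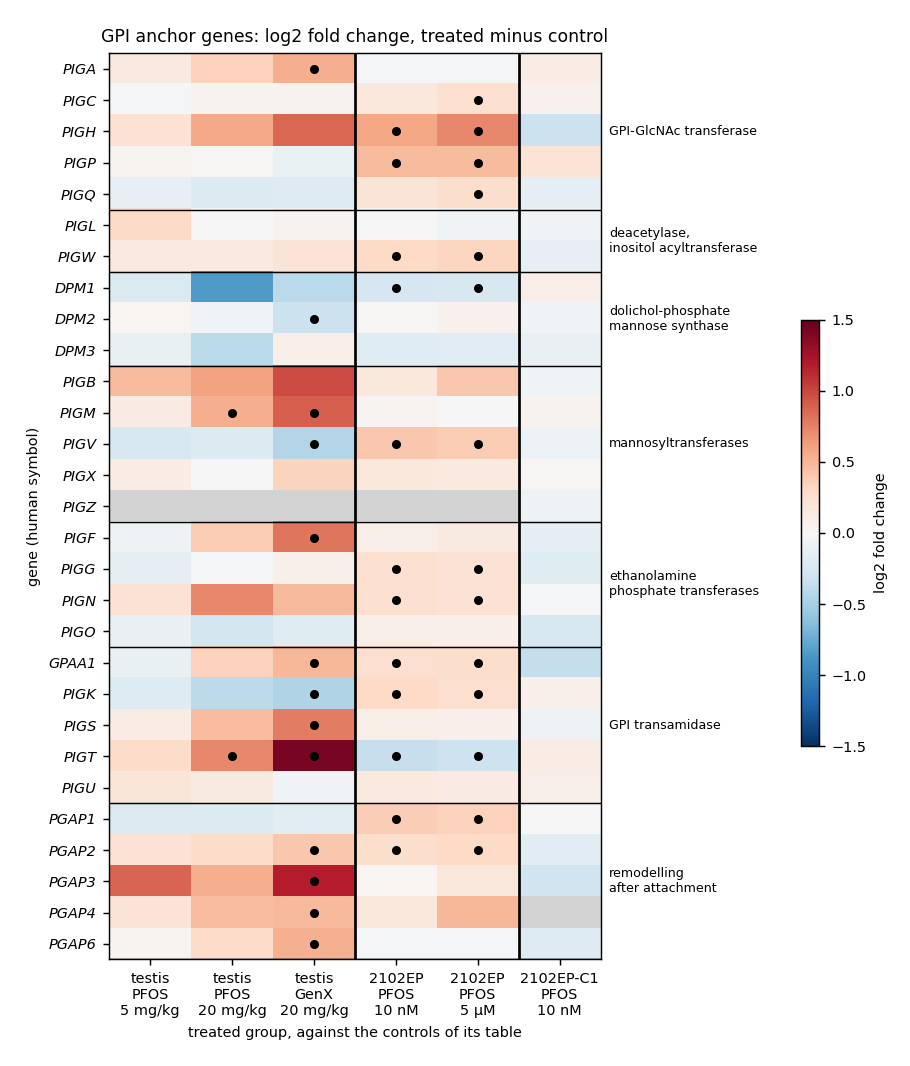
Log2 fold change of every GPI anchor gene (rows, human symbols, grouped by step of the pathway) in each treated group against the controls of its table (columns), with colour from -1.5 to 1.5, black dots on called members and grey where a gene is not in the table. The deepest colour is Pigt in the testes given GenX at 1.42, while PIGT in 2102EP cells lies below 0 at both concentrations.

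In testes of mice given GenX, 10 of the 28 members were higher than in controls (35.7%) and 3 were lower (10.7%). Of all 22575 genes tested, 31.0% were called, 16.6% higher and 14.4% lower. The median log2 fold change of the members was 0.27 against -0.01 over all genes. The groups did not overlap for 18 of the 28 (64.3%), 13 of them higher with GenX, against 49.7% of all genes.

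The transamidase, which cuts the protein's tail signal and joins the protein to the anchor, had 3 of 5 subunits higher and 1 lower. Pigt, the subunit that holds the complex together, had the largest difference of all members. Its log2 CPM was 4.15, 4.29 and 4.29 in the controls and 5.74, 5.69 and 5.56 with GenX. Every GenX testis lay above every control, and the fold was 2.67 (log2 1.42, SE 0.17, adjusted p 0.00191). Pigs, another subunit, read 4.21, 4.10 and 4.71 in controls and 5.11, 5.19 and 5.05 with GenX, without overlap (log2 0.77, SE 0.18, adjusted p 0.00773). Gpaa1, a further subunit, read 3.44, 3.69 and 3.72 in controls and 4.05, 4.08 and 4.21 with GenX (log2 0.50, SE 0.14, adjusted p 0.0188). Pigk, the protease subunit, lay on the other side, at 6.03, 6.10 and 5.77 in controls and 5.48, 5.58 and 5.49 with GenX. The groups did not overlap and the difference was -0.46 (SE 0.13, adjusted p 0.0185). Pigu did not pass (log2 -0.05, SE 0.12, adjusted p 0.776), with GenX values inside or just below the control range.

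Among the enzymes that add mannose, Pigm, which adds the first one, read 5.09, 5.08 and 5.26 in controls and 6.03, 6.07 and 6.01 with GenX. The 3 GenX testes lay within 0.1 of each other and above every control (log2 0.89, SE 0.13, adjusted p 0.00192). Pigv, which adds the second mannose, was lower, at 6.10, 6.22 and 6.10 in controls and 5.78, 5.93 and 5.40 with GenX (log2 -0.44, SE 0.14, adjusted p 0.0344). Pigb, the enzyme for the third mannose, had a difference of 0.98 that did not pass (SE 0.38, adjusted p 0.0659) at 4 to 12 reads per control library and 17 to 26 with GenX. Pigx, the partner of Pigm, had 0.34 (SE 0.17, adjusted p 0.153).

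Of the ethanolamine phosphate group, Pigf, a partner shared by the transferases Pigo and Pigg, was higher. It read 5.06, 4.73 and 5.25 in controls and 5.86, 5.80 and 5.79 with GenX, with no overlap (log2 0.80, SE 0.13, adjusted p 0.00216). Pign, which modifies the first mannose, had 0.48 (SE 0.20, adjusted p 0.0883), and Pigo and Pigg had -0.19 and 0.08 with adjusted p of 0.337 and 0.724. No other member of this group passed.

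The first step of the pathway had 1 called member of 5. Piga, the catalytic subunit that transfers N-acetylglucosamine and the gene lost in paroxysmal nocturnal hemoglobinuria, read 4.12, 3.97 and 4.09 in controls and 4.37, 4.71 and 4.72 with GenX. All GenX testes were above all controls (log2 0.54, SE 0.13, adjusted p 0.0103). Pigh, a second subunit, had 0.86 and just missed the threshold (SE 0.31, adjusted p 0.0515), with 17 to 42 reads per control library. Pigc, Pigp and Pigq, further subunits, had 0.05, -0.11 and -0.19, and Pigl and Pigw, which remove the acetyl group and acylate the inositol, had 0.05 and 0.20, none of them past the threshold.

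Dolichol-phosphate mannose is the sugar donor for these mannosyltransferases and for parts of protein glycosylation. Dpm2, which stabilises the synthase, read 5.20, 5.22 and 5.20 in controls and 4.95, 4.83 and 4.88 with GenX, without overlap (log2 -0.32, SE 0.11, adjusted p 0.0401). Dpm1, the catalytic subunit, read 1.84, 1.92 and 1.75 in controls and 1.22, 1.60 and 1.5 with GenX. The groups did not overlap for Dpm1 either, at 42 to 62 reads per library, but the difference of -0.40 did not pass (SE 0.24, adjusted p 0.224). Dpm3, the anchor of the synthase in the membrane, had 0.09 (SE 0.22, adjusted p 0.79).

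Remodelling after attachment had 4 of 5 members higher. Pgap3, which removes a fatty acid from the lipid in the Golgi, read -0.07, 0.22 and 0.65 in controls and 1.63, 1.08 and 1.60 with GenX, from 13 to 27 and from 38 to 57 reads (log2 1.17, SE 0.29, adjusted p 0.00939). Pgap2, which works after Pgap3 in the same exchange, read 6.27, 6.37 and 6.22 in controls and 6.65, 6.78 and 6.65 with GenX (log2 0.41, SE 0.09, adjusted p 0.00653). Pgap6, a phospholipase that releases some anchored proteins, read 7.06, 6.97 and 7.13 in controls and 7.60, 7.61 and 7.56 with GenX (log2 0.54, SE 0.14, adjusted p 0.0121). Pgap4, which starts a side chain on the glycan, read 4.58, 4.22 and 4.58 in controls and 4.91, 5.03 and 4.91 with GenX (log2 0.49, SE 0.13, adjusted p 0.0135). For each of the 4, every GenX testis was above every control. Pgap1, which removes the acyl chain from inositol, had -0.16 and did not pass (SE 0.14, adjusted p 0.415).

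Leaving out 1 testis at a time kept between 9 and 12 calls in all. Piga, Pigf, Pigm, Pigs, Pigt, Pgap2, Pgap3 and Pgap6 passed in each of those 6 fits. Dpm2 was lost in all 6 (highest adjusted p 0.114), Pigv in all but the one without GenX replicate 2 (0.149), Pigk without control replicate 1 or 2 or GenX replicate 1 or 3 (0.0761), Gpaa1 without control replicate 1 or GenX replicate 3 (0.0778) and Pgap4 without control replicate 2 (0.0604).

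**Figure D2:**
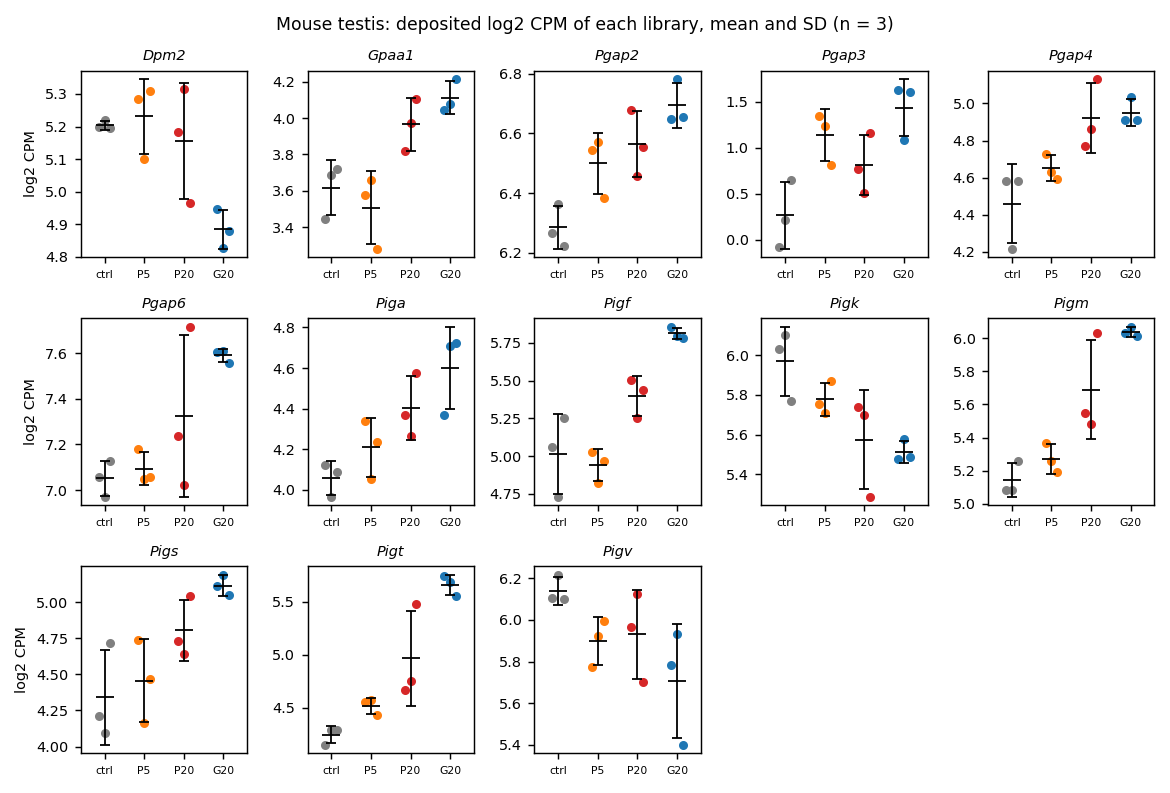
Deposited log2 CPM of the 13 members called in testes given GenX, one point per library, with the mean and SD of each group of 3 (ctrl, control; P5, 5 mg/kg PFOS; P20, 20 mg/kg PFOS; G20, 20 mg/kg GenX). For Pigm, Pigf and Pigt the GenX points sit above all controls, and for Pigt one 20 mg/kg PFOS testis (5.48) lies close to them.

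Marker lists of testis cell types also differed with GenX. In bulk tissue, fewer cells of a type and less RNA per cell cannot be told apart. The summed level of 8 spermatid markers was 48844 to 60272 CPM in controls and 25320 to 31358 CPM with GenX, with 4 markers lower and 0 higher, among them Prm1 and Prm2, the protamines of sperm chromatin (log2 -1.0 and -1.26). The summed level of 6 Leydig cell markers was 74.2 to 190 CPM in controls and 352 to 560 CPM with GenX, with 5 of the 6 higher. Peritubular muscle markers were higher for 3 of 4 and macrophage markers for 3 of 6, with sums of 49.1 to 66.5 and 23.9 to 29.3 CPM in controls and 86.4 to 93.1 and 37.0 to 39.7 CPM with GenX. Spermatocyte markers had 2 of 8 higher and 4 lower (sums 718 to 778 and 723 to 808 CPM), Sertoli markers 2 of 7 higher and 1 lower (112 to 126 and 129 to 136 CPM), spermatogonial markers 1 of 8 higher and 1 lower (108 to 118 and 93.3 to 99.9 CPM) and endothelial markers 0 of 4 tested. Their part in the differences of the GPI anchor genes was not tested.

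Pigt and Pigm were the members that passed in testes of mice given 20 mg/kg PFOS, both higher, which is 2 of 28 (7.14%). Of all genes 6.54% were called, 3.69% higher and 2.85% lower. The median difference of the members was 0.14 against -0.01 over all genes, and the groups did not overlap for 10 members (35.7%), against 29.7% of all genes.

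Pigt read 4.67, 4.75 and 5.48 with 20 mg/kg PFOS, all above the controls (log2 0.72, SE 0.17, adjusted p 0.0394). Pigm read 5.55, 5.48 and 6.03, again above every control (log2 0.55, SE 0.13, adjusted p 0.0395). In both genes the highest of the treated testes was replicate 3, the library that stood apart. Without it 0 members were called, and 0.00886% of all genes, and Pigt and Pigm had differences of 0.47 and 0.37. Both calls were lost as well without control replicate 1 or control replicate 2, while 7 members were called without control replicate 3 (with 2278 of all 22575 genes) and 4 without treated replicate 1 (with 1762).

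Members that missed the threshold, some of them narrowly, lay in several steps. Pgap4 had 0.46 (SE 0.13, adjusted p 0.0514), Pign 0.72 (SE 0.20, adjusted p 0.0536) and Dpm1 -0.85 (SE 0.24, adjusted p 0.0538). Dpm1 read 1.24, 0.66 and 1.08 against 1.84, 1.92 and 1.75 in controls, from 26 to 37 reads against 51 to 62. Pigk, lower with GenX, had -0.40 here (SE 0.13, adjusted p 0.0737), Gpaa1 had 0.35 (SE 0.14, adjusted p 0.129), and Piga had 0.34 (SE 0.13, adjusted p 0.119). None of these passed, although for each of the 6 the treated and control testes did not overlap, as for 29.7% of all genes. Without replicate 3 these 6, in the order given, had 0.36, 0.82, -0.89, -0.25, 0.28 and 0.26. Their adjusted p from limma was then 0.0962 to 0.325. Pgap2 and Pigf did not overlap with the controls either and were not called. Replicate 3 of this group also had a spermatid marker sum of 26173 CPM, near those of the GenX testes, while the other 2 testes of the group had 43385 and 44085 CPM. The Leydig cell sum was 96.2 to 154 CPM, within the control range, but single markers differed in both directions. Cyp11a1, the first enzyme of steroid synthesis, was lower (log2 -2.50, adjusted p 0.0381), Insl3, a Leydig cell hormone, was higher (1.59, adjusted p 0.0411), and the median of the 6 was -0.66. Of the macrophage markers Adgre1 was higher (1.02, adjusted p 0.0475), 1 of 6, with sums of 29.5 to 36.0 CPM, and of the peritubular muscle markers Acta2 (0.77, adjusted p 0.0390), 1 of 4, with sums of 70.4 to 84.1 CPM, both lists above all controls. Limma called no spermatogonial, spermatocyte, spermatid, Sertoli or endothelial marker. Without replicate 3 limma called 1 gene higher and 1 lower of all 22575. Not all of these marker calls can therefore remain without that testis. What part these markers had was not tested.

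At 5 mg/kg PFOS, the lower dose in testis, no member passed, and 0 of 28 were called and 0.00443% of all genes (1 gene). At an unadjusted p under 0.05 limma gave 3 of the 28 members, all higher, and 5.06% of all genes, and limma-voom called 0 as well. The 3 were Pgap3 with 0.87 (SE 0.29, adjusted p 0.92), Pigl with 0.28 (SE 0.12) and Pgap2 with 0.21 (SE 0.09). Pgap3 read 1.35, 1.24 and 0.82 against -0.07, 0.22 and 0.65 in controls, so each treated testis was above the controls, at 24 to 41 reads. Piga, Gpaa1 and Pigk had differences of 0.15, -0.11 and -0.19, and Dpm1, Dpm2 and Dpm3 had -0.22, 0.03 and -0.11, with adjusted p from 0.92 to 0.985. The groups did not overlap for 8 members (28.6%), against 10.8% of all genes.

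GenX and PFOS were then compared directly at the matched dose of 20 mg/kg and the same time, as 1 pair of compounds. No member differed past the threshold, and 0.0886% of all genes did. The median of the members was 0.12, and 0.19 without PFOS replicate 3. At an unadjusted p under 0.05 there were 6 of the 28 members in limma, 5 higher and 1 lower with GenX, and 11.1% of all genes, and limma-voom called 0 at the adjusted threshold. Among these 6 Pigt had the largest difference, 0.70 higher with GenX (95% interval 0.32 to 1.07, adjusted p 0.266), followed by Pgap3 with 0.62 (0.01 to 1.24), Dpm3 with 0.49 (0.01 to 0.98) and Pigf with 0.42 (0.14 to 0.69). Pigm had 0.35 (0.06 to 0.63) and Dpm2 -0.27 (-0.50 to -0.04). For Piga the interval was -0.09 to 0.49 and for Gpaa1 -0.16 to 0.45, so differences of that size remain within the error. Without PFOS replicate 3, 4 members passed, with 11.2% of all genes, and these were Pigt (0.95, SE 0.10, adjusted p 0.00048), Pigm (0.52, adjusted p 0.00564), Pgap6 (0.46, adjusted p 0.00668) and, lower with GenX, Dpm2 (-0.37, adjusted p 0.0319).

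Between the PFOS doses, 20 against 5 mg/kg, 0 members and 0.00443% of all genes (1 gene) were called. At an unadjusted p under 0.05 limma gave 7 of the 28 members, 5 higher and 2 lower at 20 mg/kg, and 17.7% of all genes, and limma-voom called 0.

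In 2102EP cells at 10 nM PFOS 10 members were higher (35.7% of 28) and 2 lower (7.14%), and at 5 µM 12 were higher (42.9%) and 2 lower (7.14%). At 10 nM 25.7% of all 16694 genes were called, 12.8% higher and 12.9% lower, and at 5 µM 26.9% were called, 13.2% higher and 13.6% lower. The median differences of the members were 0.16 and 0.20, against 0.01 over all genes at both concentrations. The comparisons share the 2 control libraries, and the values of a member at both concentrations are therefore set side by side. The groups did not overlap for 19 members at 10 nM (67.9%, against 59.9% of all genes) and for 22 at 5 µM (78.6%, against 61.8%).

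The members called lower at both concentrations were PIGT and DPM1. PIGT (GRCh38, chromosome 20, 45416084 to 45456934, plus strand) read 6.40 and 6.25 in controls, 6.0 and 5.95 at 10 nM and 6.04 and 5.99 at 5 µM. Every treated library was below both controls, by 0.35 at 10 nM (SE 0.05, adjusted p 0.000178) and 0.31 at 5 µM (SE 0.05, adjusted p 0.00049). DPM1 (chromosome 20, 50934867 to 50959140, minus strand) read 6.37 and 6.43 in controls, 6.14 and 6.16 at 10 nM and 6.07 and 6.23 at 5 µM. The differences were -0.25 (SE 0.05, adjusted p 0.00302) and -0.24 (SE 0.05, adjusted p 0.00339). DPM2 had 0.02 and 0.06 and DPM3 -0.19 and -0.16, none of them called, though DPM3 was below both controls in all 4 treated libraries.

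Within the transamidase, the other called subunits were higher. PIGK (chromosome 1, 77088989 to 77219430, minus strand) read 5.20 and 5.24 in controls, 5.51 and 5.53 at 10 nM and 5.45 and 5.51 at 5 µM. Its 6 libraries split into control and treated with a gap of about the same size at both concentrations (log2 0.30 and 0.26, SE 0.05, adjusted p 0.000594 and 0.00208). GPAA1 (chromosome 8, 144082337 to 144093149, plus strand) read 5.82 and 5.69 in controls and 6.05, 5.96, 6.0 and 6.02 in the treated libraries (log2 0.25 and 0.26, SE 0.06, adjusted p 0.00284 and 0.0024). PIGS and PIGU were not called, with 0.09 and 0.14 at 10 nM and 0.08 and 0.12 at 5 µM.

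In the first step, PIGH and PIGP, small subunits of the N-acetylglucosamine transferase, had the largest fold changes of the members called. PIGH read 0.68 and 0.42 in controls, 1.29 and 0.97 at 10 nM and 1.17 and 1.37 at 5 µM, which is 48 to 50 reads in the controls and 79 to 122 in the treated libraries. The difference was 0.58 at 10 nM (SE 0.19, adjusted p 0.0311) and 0.73 at 5 µM (SE 0.19, adjusted p 0.00905). PIGP read 2.20 and 2.17 in controls, 2.74 and 2.56 at 10 nM and 2.72 and 2.61 at 5 µM (log2 0.47 and 0.48, SE 0.11, adjusted p 0.00614 and 0.00542). PIGC, another subunit, read 4.02 and 3.80 in controls, 4.06 and 4.08 at 10 nM and 4.12 and 4.17 at 5 µM (log2 0.16 and 0.23, SE 0.08, adjusted p 0.165 and 0.0416). PIGQ, a further one, read 4.59 and 4.32 in controls, 4.61 and 4.67 at 10 nM and 4.79 and 4.64 at 5 µM (log2 0.19 and 0.27, SE 0.08, adjusted p 0.107 and 0.0255). Both passed at 5 µM and missed at 10 nM, and the direct comparison of the concentrations called neither. PIGA, the catalytic subunit, read 5.44 and 5.45 in controls and between 5.41 and 5.43 in all treated libraries, with differences of -0.02 at both concentrations (SE 0.05, adjusted p 0.812 and 0.788).

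**Figure D3:**
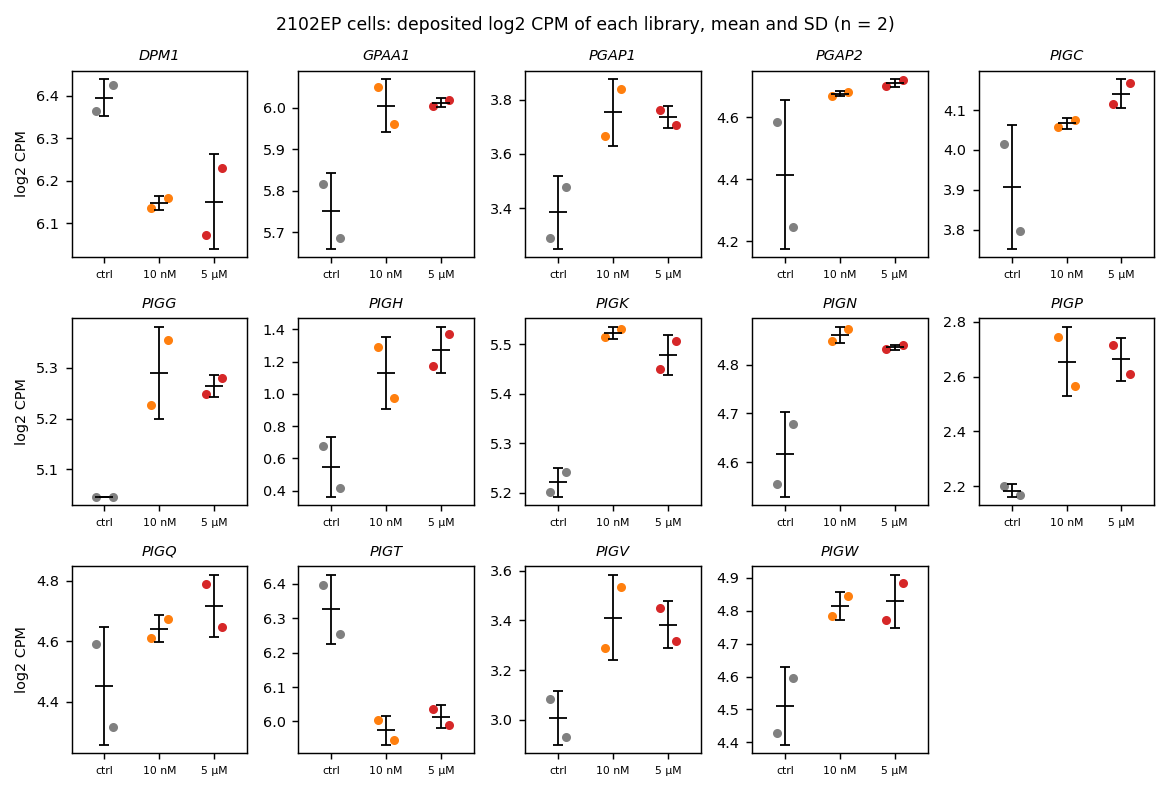
Deposited log2 CPM of the 14 members called in 2102EP cells at 5 µM PFOS, one point per library, with the mean and SD of each group of 2 (ctrl, DMSO). PIGT and DPM1 lie below both controls in all 4 treated libraries, and the 12 others lie above them, with 10 nM and 5 µM side by side at similar levels.

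Later steps each had called members that were higher at both concentrations. PIGV, the second mannosyltransferase, read 3.08 and 2.93 in controls and 3.29, 3.53, 3.45 and 3.32 when treated (log2 0.40 and 0.38, adjusted p 0.0085 and 0.0127). PIGN, the transferase that puts ethanolamine phosphate on the first mannose, read 4.55 and 4.68 in controls and 4.85, 4.87, 4.83 and 4.84 when treated (log2 0.24 and 0.22, adjusted p 0.0091 and 0.0171). PIGG, the one acting on the second mannose, read 5.05 in both controls and 5.23, 5.35, 5.25 and 5.28 when treated (log2 0.24 and 0.22, adjusted p 0.00585 and 0.0117). In each of these 3 genes all treated libraries were above both controls. PIGW, the inositol acyltransferase, read 4.43 and 4.59 in controls and 4.78, 4.84, 4.77 and 4.88 when treated (log2 0.30 and 0.32, adjusted p 0.0046 and 0.00331). PGAP1, the inositol deacylase, read 3.29 and 3.48 in controls and 3.67, 3.84, 3.76 and 3.71 when treated (log2 0.37 and 0.35, adjusted p 0.0071 and 0.00936). PGAP2, of the lipid remodelling, read 4.58 and 4.25 in controls and 4.67, 4.68, 4.70 and 4.72 when treated (log2 0.26 and 0.29, adjusted p 0.0334 and 0.0177). The controls of PGAP2 differed from each other by more than the treated libraries did. The members that were not called at either concentration, besides those already given, were PIGB (0.16 and 0.41), PIGF (0.08 and 0.14), PIGL (0.01 and -0.07), PIGM (0.04 and -0.01), PIGO (0.09 and 0.07), PIGX (0.16 and 0.14), PGAP3 (0.04 and 0.17), PGAP4 (0.17 and 0.50, at 13 to 29 reads) and PGAP6 (-0.03 at both). Of these, PIGF, PIGM, PGAP3, PGAP4 and PGAP6 were called higher in testes given GenX, as were PIGA and PIGS among the uncalled members described above.

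Leaving out 1 of 2 libraries leaves a lone library in its group, and fewer of all genes were called in some of these fits too. The lowest shares of all genes are given in the last section. With 2 libraries per group, leaving out a treated library changed the counts. At 10 nM they were 5 higher and 2 lower without replicate 1 and 4 higher and 2 lower without replicate 2, and at 5 µM 4 higher and 1 lower without replicate 1 and 5 higher and 2 lower without replicate 2. PIGT passed in all 8 of these fits, controls included. At 10 nM PIGK and DPM1 also passed in each, and at 5 µM GPAA1 did. The calls lost at 10 nM were GPAA1, PGAP2, PIGH, PIGN and PIGP without replicate 1, PGAP1, PGAP2, PIGG, PIGN, PIGV and PIGW without replicate 2, and PGAP2 and PIGH without control replicate 2, with adjusted p of up to 0.322. Those lost at 5 µM were DPM1, PGAP1, PGAP2, PIGC, PIGG, PIGN, PIGP, PIGQ and PIGV without replicate 1, PGAP2, PIGC, PIGG, PIGH, PIGK, PIGN and PIGW without replicate 2, PGAP1 and PIGN without control replicate 1, and PGAP2, PIGC, PIGQ and PIGV without control replicate 2, with adjusted p of up to 0.253. Across 15512 genes the change went with exonic GC content (Spearman rho -0.264 at 10 nM and -0.216 at 5 µM, over genes, which are not independent, and -0.401 over 16040 genes in 2102EP-C1 at 10 nM). The 7 embryonal carcinoma markers summed to 4667 to 4704 CPM in controls and 4328 to 4443 CPM in treated libraries, with 4 lower and 1 higher at each concentration. Of 7 endoderm and trophoblast markers, 3 were detected, at sums of 22.0 to 24.9 CPM in controls and 17.7 to 20.8 CPM when treated. Depth was 33299121 and 39122095 reads in the controls and 41052497 to 48717356 in the treated libraries. The part of depth and of these markers was not tested. The median GC content was 45.9% for the 28 members and 48.3% over the genes of the 2102EP table. Centred on genes of like GC content, an alternative chosen after seeing the data, 13 members were higher and 2 lower at 10 nM and 12 and 2 at 5 µM. The share of all genes called in that fit is not given here, so these counts stand without a background.

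Between 5 µM and 10 nM, 0 members were called and 0.0% of all genes, with 0 members at an unadjusted p under 0.05 (3.31% of all genes) and 0 by limma-voom. The differences of the members ran from -0.08 to 0.33, the highest being PGAP4 at 18 to 29 reads. Of the members called higher, 10 were called at both concentrations, and so were the 2 called lower.

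In 2102EP-C1 cells, the cisplatin-resistant line, 0 of 28 members were called at 10 nM PFOS, and 0.0% of all 17256 genes. The differences ran from -0.36 to 0.21 with a median of -0.07, against 0.00 over all genes, and 18 of 28 were below 0. In limma 5 of the 28 members had an unadjusted p under 0.05, all lower, against 16.04% of all genes, and limma-voom called 0. These were PIGO with -0.24 (SE 0.06, adjusted p 0.273), PGAP6 with -0.20, GPAA1 with -0.36, PGAP3 with -0.30 and PIGH with -0.33. Non-overlapping groups were seen for 3 members (10.7%, against 9.75% of all genes).

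PIGO, which puts ethanolamine phosphate on the third mannose, read 4.71, 4.72, 4.71 and 4.67 in controls and 4.34, 4.57, 4.46 and 4.46 when treated. GPAA1 read 4.79, 4.63, 4.82 and 4.82 in controls and 3.90, 4.76, 4.34 and 4.62 when treated, where the lowest value was that of the library that stood apart. Without that library 7 genes of all (0.0406%) and 0 members were called, and GPAA1 had -0.19 (SE 0.08, adjusted p 0.369) and PIGO -0.20 (SE 0.06, adjusted p 0.19). PGAP6, PGAP3 and PIGH had -0.11, -0.21 and -0.22 without it. PIGT, lower in 2102EP cells, read 5.11, 5.15, 5.09 and 5.07 in controls and 5.54, 5.04, 5.12 and 5.16 when treated (log2 0.11, SE 0.09, adjusted p 0.54), and 0.00 without the library apart. PIGK read between 6.21 and 6.29 in controls and between 6.30 and 6.33 when treated, a difference of 0.08 with no overlap (SE 0.05, adjusted p 0.378). PIGA had 0.11 (SE 0.06) and DPM1, DPM2 and DPM3 had 0.10, -0.06 and -0.11, none of them called. PIGZ, the enzyme for an additional mannose, had -0.07 (SE 0.14) at 35 to 55 reads. The cell lines were normalised in separate tables, and the difference between their responses was not tested.

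**Figure D4:**
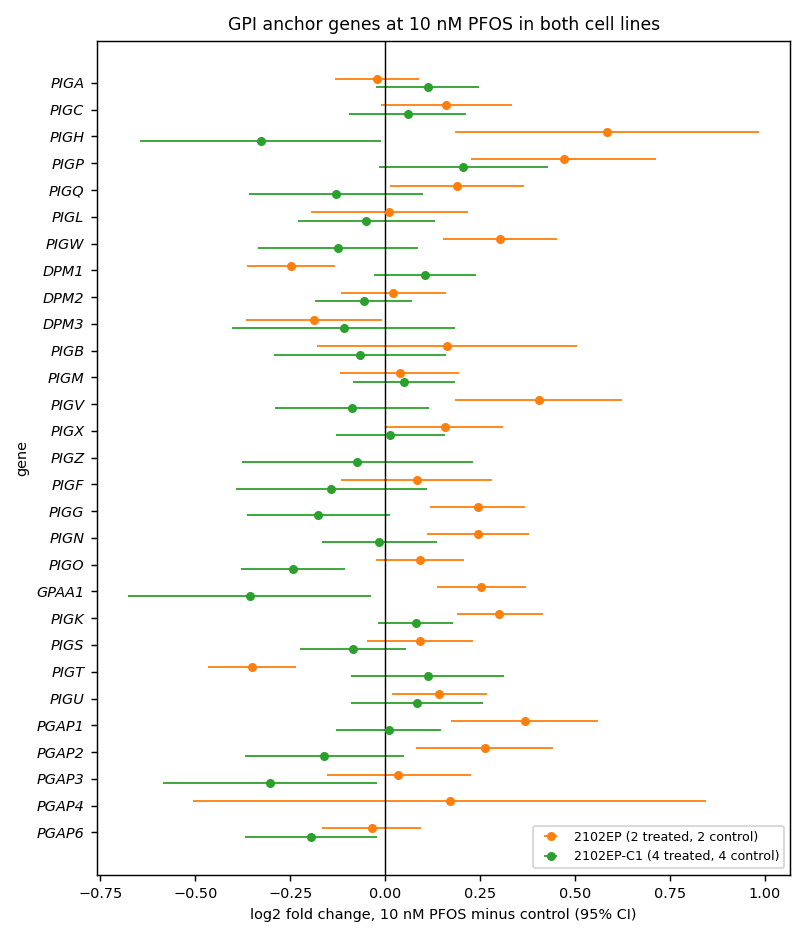
Log2 fold change at 10 nM PFOS against DMSO with its 95% interval for each member in 2102EP (orange, 2 treated and 2 control libraries) and 2102EP-C1 cells (green, 4 and 4). Intervals of the called 2102EP members lie off 0, as for PIGT at -0.35 and PIGK at 0.30, which the threshold for a call already requires. The 2102EP-C1 estimates lie between -0.36 and 0.21. The intervals of 5 of them also lie off 0, all below it, and none of these was called.

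Genes that supply the pathway or depend on it were counted in lists, beside 31.0% of all genes called with GenX, 6.54% at 20 mg/kg PFOS and 25.7% and 26.9% in 2102EP cells at 10 nM and 5 µM. For the supply of dolichol, mannose and N-acetylglucosamine, 5 of 15 genes were higher and 1 lower with GenX, 1 was higher at 20 mg/kg PFOS, and 3 and 2 were higher in 2102EP cells at 10 nM and 5 µM. Mpdu1, needed for the use of dolichol-phosphate mannose, was higher in both 20 mg/kg groups (log2 1.27 with GenX and 0.98 with PFOS, SE 0.20, adjusted p 0.00204 and 0.0381). Its PFOS value includes replicate 3, the testis without which 1 gene of all was called higher at 20 mg/kg PFOS. Nus1 and Dhdds, the subunits of the enzyme that makes the dolichol chain, were higher with GenX by 0.80 and 0.52. In 2102EP cells UAP1 and PGM3, enzymes on the way to UDP-N-acetylglucosamine, were higher by 0.22 each at 10 nM and by 0.24 and 0.18 at 5 µM. The medians of this list were 0.15 with GenX and 0.07 and 0.05 in 2102EP cells, against -0.01, 0.01 and 0.01 over all genes.

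Other users of dolichol-phosphate mannose had 0 of 7 called with GenX. At an unadjusted p under 0.05 limma gave 3 of them, against 42.5% of all genes. In 2102EP cells 1 was higher and 1 lower at each concentration. The lower one was ALG3, a mannosyltransferase of the N-glycan precursor (-0.30 and -0.32, SE 0.05, adjusted p 0.000329 and 0.000186), and the higher one TMTC3, which adds mannose to cadherins (0.21 and 0.19). Of the genes for accessory steps and traffic, 5 of 8 were higher at 10 nM and 6 of 8 at 5 µM in 2102EP cells, and 3 of 10 were higher and 1 lower with GenX. CLPTM1L, a lipid scramblase of the pathway, was higher in all 3 (0.18 and 0.24 in 2102EP cells, 0.66 with GenX). TMED5, a cargo receptor for GPI-anchored proteins, was higher in 2102EP cells (0.27 and 0.25) and lower with GenX (-0.54, SE 0.14, adjusted p 0.0134). Mppe1, which encodes the enzyme also known as PGAP5, was 1.81 higher with GenX (SE 0.35, adjusted p 0.00334). Enzymes that release anchored proteins had 0 genes called, of 3 in testis with GenX and of 4 in 2102EP cells. At an unadjusted p under 0.05 limma gave 2, 1 and 0 with GenX, 10 nM and 5 µM. Of all genes these were 42.5%, 36.8% and 37.7%.

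The anchored proteins themselves had calls in both directions, at shares to be read against the 25.7%, 26.9% and 31.0% of all genes called at 10 nM, at 5 µM and with GenX. Of 27 widely expressed ones, 2 were higher and 6 lower at 10 nM and 1 was higher and 7 lower at 5 µM in 2102EP cells. THY1, a surface glycoprotein, was lower by 0.40 and 0.39 (log2 -0.40 and -0.39, SE 0.04, adjusted p 3.47e-06 and 3.96e-06), LY6E had -0.29 and -0.26, and TDGF1, a co-receptor of embryonal carcinoma cells, had -0.15 and -0.18. With GenX 4 of 25 were higher and 1 lower in testis, among them Ly6e (1.94, SE 0.53, adjusted p 0.0159) and Folr1, a folate receptor (1.21), both higher, and Efna3 (-1.04), lower. Of 8 anchored proteins of mouse germ cells, 1 was higher and 5 lower with GenX. Hyal5, a sperm hyaluronidase, was 0.56 higher (SE 0.10, adjusted p 0.00247), while Prss21, a protease of sperm, had -0.54 and Cd59b, a complement inhibitor, -0.51. That list holds genes of the spermatids whose markers were also lower in these testes, and their part was not tested. At 20 mg/kg PFOS none of the 25 and the 8 was called, and Mpdu1 was the call in the lists given above. At an unadjusted p under 0.05 limma gave 6 of the 25 and 3 of the 8, against 28.2% of all genes. At 5 mg/kg and in 2102EP-C1 cells limma called 0 genes of these lists. There it gave 2 of 68 and 11 of 62 at an unadjusted p under 0.05, against 5.06% and 16.04% of all genes.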

How the data were processed

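RNA-seq was performed on 26 libraries by the study, with poly(A)-selected stranded libraries, alignment with STAR, counting with featureCounts and limma. The submitters' processing notes name GRCh38.p14 for every sample, and the paper names another patch of the human build and, for testis, a mouse build, so no mouse coordinates are given here. Whether the counting used strand is not given in the sources used here, so reads of overlapping genes on opposite strands may be mixed. The authors deposited log2 CPM values per gene and library. Their steps gave whole reads in 100% of values within 0.05 reads, with an offset of 3 reads of the mean library in testis and 2102EP and of 2.9 in 2102EP-C1, and low genes therefore have compressed differences. Depth and the voom alternative used these reads. In 2102EP, 4 unnamed rows (at most 0.000443% of reads) were left out.

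Here the deposited log2 CPM was fitted with limma 3.58.1 (R 4.3.3, empirical Bayes with trend), all groups of a table in one model, with Benjamini-Hochberg adjustment over all genes tested and a threshold of 0.05. The tables were normalised separately and no test crossed them. Genes entered a test if they reached the equivalent of 10 reads (median library) in 3 testis, 2 2102EP or 4 2102EP-C1 libraries, the sizes of the smallest groups, and 15 reads in all, which kept 22575, 16694 and 17256 genes. Testis rows carry Entrez numbers, and 17523 of 25770 were given mouse symbols from GENCODE. The fit was also tested on simulated data with known changes. Those data had the same relative spread for every gene and no library that stood apart from its group. They therefore do not show how the fit behaves with the libraries that did.

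Every member is named, called members are given in every library, and at most 3 genes of a related list (those of the smallest p) are named per comparison. Members and lists were chosen with earlier results of these data known. Alternatives were limma-voom, median-of-ratios scaling, no filter, a model of the compared groups alone, the replicate block, 1 added to CPM, each library left out and, added later, centring on 20 bins of GC content.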

Additional observations from a re-analysis of the deposited data

Results flagged for a closer look

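Among 56 checks of a member in a 2102EP-C1 group of 4 libraries, 3 had a library whose gap to the nearest of the others, as a share of the whole range, was above the critical value of Dixon's test. Chance flags about 1 in 20 such checks. PIGG in treated replicate 1 read 4.69 against 5.05 in each of the other 3 (share 0.999), and this is the library that stood apart. PIGA in treated replicate 3 read 5.22 against 5.07 to 5.09 in the others (share 0.889). GPAA1 in control replicate 2 read 4.63 against 4.79 to 4.82 in the others (share 0.874).

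At 10 nM PFOS 2 members lay on opposite sides of the controls in the cell lines, without overlap in either. PIGG differed by 0.24 in 2102EP and by -0.18 in 2102EP-C1, and PIGO by 0.092 and -0.24. PIGO was not called in 2102EP, and neither was called in 2102EP-C1. The highest treated PIGG value in 2102EP-C1 was 5.047 and the lowest control 5.048. Without the treated library that stood apart, PIGG had -0.086 there and PIGO -0.205. Of all genes, 59.9% did not overlap in 2102EP and 9.75% in 2102EP-C1. The share of all genes on opposite sides was not counted. Neither difference between the lines was tested, because their tables were normalised separately.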

How the results depend on the processing

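At 20 mg/kg PFOS, where 2 members were called, limma-voom called 1 and a model of only the compared groups 0, and leaving out 1 library gave 0 to 7. The GenX call count was 13 and ran from 9 to 12 with 1 library left out. GenX against PFOS gave 0 to 4 in those fits, 10 nM PFOS in 2102EP 6 to 15 and 5 µM 5 to 13, where a lone library is assumed to vary like the other groups. With the replicate block the counts were 12 with GenX (Dpm2 was lost), 2 at 20 mg/kg PFOS, 12 at 10 nM, 14 at 5 µM and 0 elsewhere, so no other count moved. The numbers were not taken to pair libraries, since same-numbered ones correlated from -0.125 to 0.203 in testis, -0.0524 to 0.0254 in 2102EP and -0.185 to 0.0748 in 2102EP-C1, and not every library correlated best with its own number. Scaling, the filter and adding 1 to CPM kept every count within 1.5 times, and the GC-centred counts were 15 and 14 in 2102EP, where PIGN at 5 µM was lost. PIGC at 5 µM was lost in the model of only the compared groups. Of all genes, the 6.54% called at 20 mg/kg PFOS became 3.58% with limma-voom, 0.0177% in the model of only the compared groups and 0.0 to 11.4% with 1 library left out, and the lowest shares in those fits were 18.7% with GenX, 14.4% at 10 nM and 13.3% at 5 µM. The few genes called in the other comparisons moved by over 1.5 times too, with the highest share 0.0753% at 5 mg/kg, 0.0221% between the PFOS doses, 0.353% between the 2102EP concentrations and 0.0406% in 2102EP-C1. For GenX against PFOS the share of all genes called went from 0.0886% to 11.2% without PFOS replicate 3. The medians of the members ran from 0.21 to 0.37 with GenX, 0.11 to 0.20 at 20 mg/kg PFOS, 0.00 to 0.08 at 5 mg/kg, 0.11 to 0.17 and 0.14 to 0.20 in 2102EP and -0.07 to -0.04 in 2102EP-C1. No called member changed sign in any fit, and the cause of the lost calls was not tested. Groups of 2 to 4 libraries, and low read counts of single members, limit what can be detected.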
